A study of Homo sapiens with 9 samples.

Results

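The colony-stimulating factors are secreted proteins that control the growth and survival of macrophages and granulocytes. Transcripts of 3 of them, CSF1 (macrophage factor), CSF2 (granulocyte-macrophage factor) and CSF3 (granulocyte factor), and of 3 receptor chains, CSF1R, CSF2RA and CSF3R, were followed in MDA-MB-231, an established line of human breast cancer cells with mesenchymal features. These 6 genes were taken by name from the 58735 genes of the deposited table, and all 6 were found there. TIS CM cells (Noc CM in the sample titles) were grown in medium taken from senescent cultures of the same line, in which nocodazole, an inhibitor of microtubule assembly, had induced senescence (100 ng/ml for 72 h). Cont CM cells were given medium from cultures that were not senescent, and No CM cells fresh medium alone. Each group held 3 libraries, and all 9 came from the same line with no change of genotype. The sample labels give 72 h in the media and the series design text 48 h. Nothing states that the numbered replicates were separate cultures, so the p-values reflect the spread between libraries, part or all of which could be technical.

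CSF1 signals through CSF1R, a receptor tyrosine kinase that also binds interleukin-34. CSF2 binds the alpha chain CSF2RA, which signals only together with the common beta chain CSF2RB, and CSF3 binds a homodimer of CSF3R. Myeloid cells carry these receptors, whereas tumour cells, fibroblasts and endothelium are known sources of the ligands. CSF1 is made as a secreted, a matrix-bound or a membrane form, and the membrane form can be shed by the protease ADAM17.

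Each library had between 32636708 and 39189036 fragments assigned to genes. The FPKM values (fragments scaled by gene length and library size) were whole multiples of a single step in each library, within 0.01, so fragment counts are given beside FPKM. Cont CM replicate 1 was the shallowest library and stands apart for CSF3 and CSF1R, whose values are given with and without it. The line's markers VIM and CD44 had between 345 and 401 FPKM and between 71.4 and 92.7 FPKM. The hormone receptor genes ESR1 and PGR had at most 4 and 3 fragments in a library. Of 15 myeloid markers 14 had a mean under 0.5 FPKM and 6 had no fragment in the 9 libraries, among them CD163, MPO and ELANE. The common leukocyte marker PTPRC had at most 9 fragments in a library.

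The family spanned a wide range of levels. On the FPKM scale, which corrects for gene length, mean levels in TIS CM were 124 for CSF1, 72.1 for CSF2, 16.5 for CSF2RA, 11.6 for CSF3 and 0.835 for CSF1R. Averaged over the 9 libraries, CSF1 lay above 97.9% and CSF2 above 95.4% of the 13912 genes that passed the expression minimum of 0.5 FPKM, and CSF1R above 9.58%. In No CM and TIS CM no 2 neighbours in this order overlapped. In Cont CM the order was the same by means, but the libraries of CSF1 and CSF2 overlapped. CSF3R had no fragment in any library, so 5 of the 6 genes were tested.

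CSF1 (chromosome 1, 109910242 to 109930992, plus strand, hg38) was the most abundant ligand by its means in every medium. It stood at 124, 127 and 120.4 FPKM in TIS CM, at 94.1, 80.0 and 90.1 FPKM in Cont CM, and at 148, 155 and 155 FPKM in No CM. The 3 groups did not overlap, and TIS CM lay between the other two. These values rest on between 15529 and 30232 fragments per library. An exact permutation test over the 3 groups gave p = 0.00357, the smallest that this design can give.

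CSF2 (chromosome 5, 132073790 to 132076170, plus strand, hg38) ran the other way. It stood at 78.9, 70.7 and 66.5 FPKM in TIS CM, at 94.6, 73.9 and 78.2 FPKM in Cont CM, and at 46.8, 48.0 and 48.1 FPKM in No CM. Every library in conditioned medium was above every No CM library, and TIS CM and Cont CM overlapped. Between 1300 and 2457 fragments per library lay on this short gene, which has a single annotated transcript. The exact permutation test over the 3 groups gave p = 0.0107.

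CSF3 (chromosome 17, 40015361 to 40017813, plus strand, hg38) was the least abundant ligand and had 13.1, 10.8 and 10.9 FPKM in TIS CM, 4.98, 9.65 and 10.2 FPKM in Cont CM, and 10.1, 8.09 and 8.79 FPKM in No CM. All TIS CM libraries were above all others. Cont CM replicate 1, with 365 fragments, was below every other library, while Cont CM replicates 2 and 3 had 768 and 886 fragments. The exact permutation test over the 3 groups gave p = 0.204, and p = 0.0393 without Cont CM replicate 1.

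**Figure D1:**
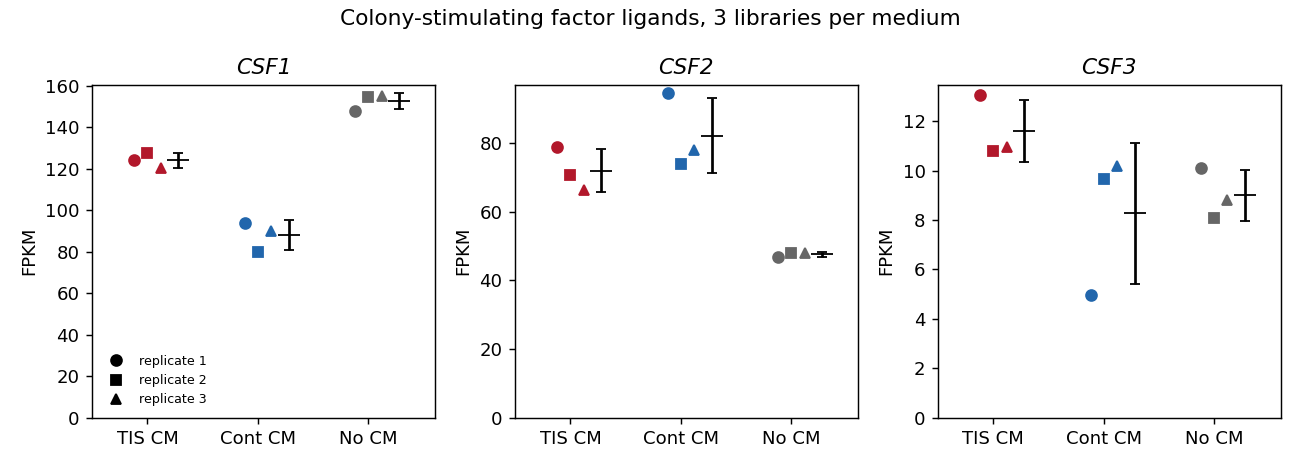
FPKM of the ligand genes CSF1, CSF2 and CSF3 in each library of TIS CM, Cont CM and No CM, with replicates 1 to 3 as circle, square and triangle and the mean ± SD in black (n = 3). By their means CSF1 is lowest and CSF2 highest in Cont CM, where CSF2 overlaps TIS CM, and the low Cont CM value of CSF3, 4.98 FPKM, is replicate 1.

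Messenger RNAs of this family are known for AU-rich elements after the stop codon, repeats of a short motif, written ATTTA in DNA letters, through which binding proteins hasten decay. The densest stretch of each ligand's longest annotated 3′ untranslated region was read from the GENCODE 29 transcripts, and is shown because CSF1 and CSF2, which moved in opposite directions, differ in it. Capitals mark ATTTA on the transcript strand, and overlapping repeats share their end bases.
CSF1 (chr1:109930924-109930940): ATTTAaatatctATTTA
CSF2 (chr5:132076081-132076101): ATTTATTTATTTATTTATTTA
CSF3 (chr17:40016983-40017004): ATTTAtctctATTTAatATTTA
CSF2 had 5 overlapping repeats in 21 bases, CSF3 had 3 in 22 bases and CSF1 had 2 in 17 bases. Over the last 300 bases of the transcript CSF2 had 8 repeats, CSF1 had 3 and CSF3 had 0, its 7 repeats lying further upstream. Among 15696 protein-coding genes with a region of that length, 48.4% held at least 1, 6.8% held at least 3 and 0.0191% held at least 8. CSF1R and CSF3R had none in their whole 3′ untranslated regions. These counts describe sequence and say nothing about decay in these cells.

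Of the upstream windows, RefSeq's table (GRCh38.p14) held CSF2 and 3 receptor genes. The 250 bases before the CSF2 start are shown because CSF2 was higher in both conditioned media. On chr5:132073539-132073788, plus strand, capitals mark TATTTAA.
CSF2 upstream: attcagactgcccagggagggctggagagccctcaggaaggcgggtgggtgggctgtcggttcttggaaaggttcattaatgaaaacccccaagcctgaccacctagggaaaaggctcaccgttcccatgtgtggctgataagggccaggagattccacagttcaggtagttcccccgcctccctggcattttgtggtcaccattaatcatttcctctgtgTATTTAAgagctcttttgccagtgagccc
TATTTAA, searched for after the sequence had been seen, began 29 bases before the start, and 4.17% of 35116 promoter windows held it on either strand. The motif TATAAA had no match on either strand in this window, and 10.7% of all windows held it. The same was so of the AP-1 motif, spelled TGANTCA, which 6.57% of all windows held, and of the NF-kB consensus, which 5.21% held. Among the windows of the receptor genes, TGANTCA began at -34 from a CSF1R start and TATAAA at -162 from a CSF3R start. Only exact matches to these spellings were searched for. Binding sites that depart from them would be missed, so the CSF2 window is not shown to lack sites for these factors.

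CSF1R (chromosome 5, 150053291 to 150113372, minus strand, hg38) was near the lower limit of the tested genes. It had 0.823, 0.833 and 0.851 FPKM in TIS CM, 0.347, 0.818 and 0.762 FPKM in Cont CM, and 1.09, 1.06 and 0.99 FPKM in No CM. No CM was highest and Cont CM lowest without overlap, but TIS CM and Cont CM were barely apart. TIS CM replicate 1 had 0.823 FPKM (150 fragments) and Cont CM replicate 2 had 0.818 FPKM (151 fragments). Cont CM replicate 1 had 59 fragments against between 150 and 202 in the other 8 libraries. The exact permutation test over the 3 groups gave p = 0.00357. It gave between 0.05 and 0.0679 when any 1 TIS CM or No CM library was left out. An opposite-strand pseudogene inside the gene, RPL7P1, held between 1832 and 2909 fragments. It shared 0 bases with annotated CSF1R exons, and RPL7P1 averaged 82.4 FPKM in TIS CM, 92.3 in Cont CM and 85.4 in No CM.

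CSF2RA (chromosome X, 1268800 to 1310381, plus strand, hg38), in the region shared by X and Y, varied little. It had 16.1, 17.8 and 15.7 FPKM in TIS CM, 16.5, 14.3 and 14.2 FPKM in Cont CM, and 16.0, 17.9 and 18.1 FPKM in No CM, from between 1957 and 2476 fragments. The groups overlapped in all 3 pairs, and the exact permutation test gave p = 0.139. Its partner CSF2RB had 0, 1 and 1 fragments in TIS CM, 0, 1 and 2 in Cont CM and 6, 0 and 0 in No CM. The other alpha chains that use CSF2RB, IL3RA and IL5RA, had at most 3 and 4 fragments in a library.

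CSF3R (chromosome 1, 36466043 to 36483278, minus strand, hg38) had 0 fragments in all 9 libraries. A count of 0 allows up to 3 fragments, which on this gene is between 0.00908 and 0.0108 FPKM per library and covers counting error only. ACTB and GAPDH, which every cell uses, had at least 208357 and 78776 fragments in each library.

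**Figure D2:**
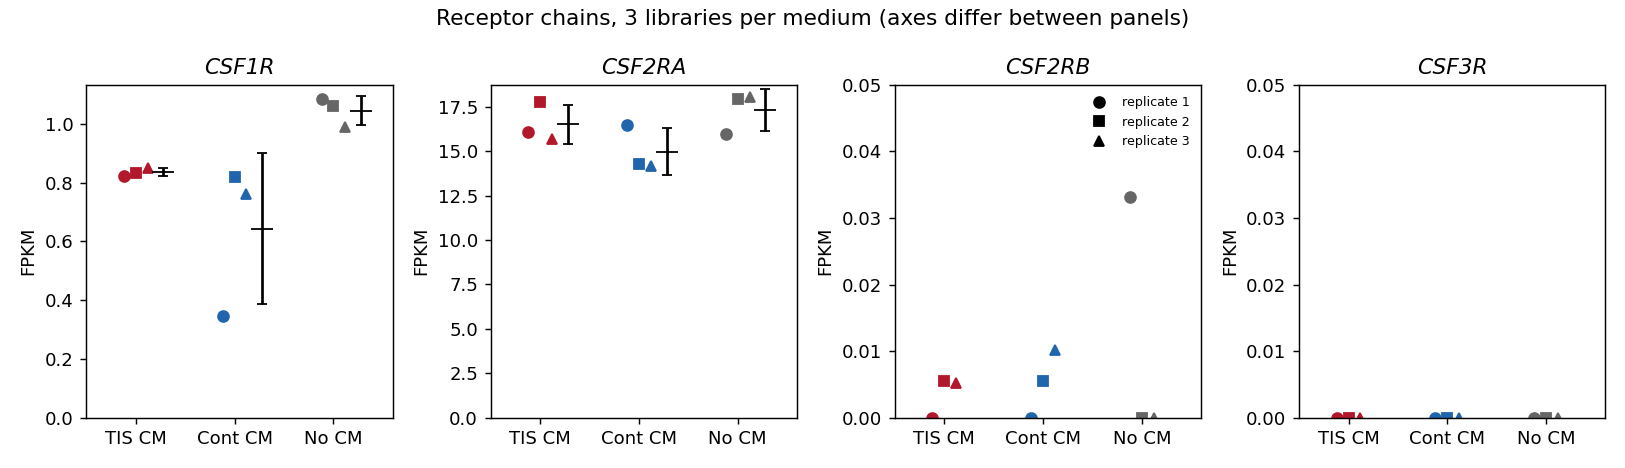
FPKM of the receptor chains CSF1R, CSF2RA, CSF2RB and CSF3R in each library of TIS CM, Cont CM and No CM (axes differ), with replicates 1 to 3 as circle, square and triangle. Black marks are mean ± SD (n = 3) for CSF1R and CSF2RA; CSF2RB stays at or below 0.0332 FPKM and CSF3R at 0.

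Against medium of non-senescent cells, medium of senescent cells left CSF1 higher and no other member changed by the test. CSF1 averaged 124 ± 3.52 FPKM in TIS CM and 88.0 ± 7.28 FPKM in Cont CM (SD, n = 3 each). On the log2(FPKM + 0.5) scale, which understates the change of low genes, the difference was 0.49 (SE 0.06, 95% interval 0.36 to 0.63, limma adjusted p = 0.00775), higher in 3 of 3 libraries. A larger difference was seen in 2.28% of tested genes. The call was lost without TIS CM replicate 1 or 2, at limma adjusted p = 0.0538 and 0.055, with differences of 0.49 and 0.48. Of the 5 tested members 1 was called higher, against a background of 2.9% of 13912 genes, and 0 were called lower, against 1.57% (4.48% in either direction). CSF2 averaged 72.1 ± 6.32 FPKM in TIS CM and 82.3 ± 10.9 FPKM in Cont CM. Its difference of -0.19 (95% interval -0.39 to 0.02, limma adjusted p = 0.253) did not pass, and it was -0.08 without Cont CM replicate 1.

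CSF3 averaged 11.6 ± 1.26 FPKM in TIS CM and 8.27 ± 2.86 FPKM in Cont CM. The difference was 0.52 (95% interval 0.02 to 1.02, limma adjusted p = 0.2). Without Cont CM replicate 1 it was 0.21 (limma adjusted p = 0.226), and the groups still did not overlap. CSF1R, at 0.835 ± 0.014 FPKM in TIS CM and 0.642 ± 0.257 FPKM in Cont CM, differed by 0.25 (limma adjusted p = 0.366), and by 0.05 without Cont CM replicate 1. CSF2RA averaged 16.5 ± 1.1 FPKM in TIS CM and 15.0 ± 1.31 FPKM in Cont CM, a difference of 0.14 (95% interval -0.03 to 0.31, limma adjusted p = 0.302) that lay between 0.09 and 0.21 with 1 library left out. In 3 of the 5 tested members the groups did not overlap, against 28.6% of all tested genes. CSF1R was 1 of these 3, by only 0.823 against 0.818 FPKM.

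Against plain medium, medium of non-senescent cells lowered CSF1 and raised CSF2. CSF1 averaged 88.0 ± 7.28 FPKM in Cont CM and 153 ± 3.98 FPKM in No CM, a log2 difference of -0.79 (SE 0.06, limma adjusted p = 0.000105), lower in 3 of 3 libraries. CSF2 averaged 82.3 ± 10.9 FPKM in Cont CM and 47.6 ± 0.703 FPKM in No CM, a log2 difference of 0.77 (SE 0.09, limma adjusted p = 0.00105), higher in 3 of 3 libraries. Larger changes were seen in 1.29% of tested genes for CSF1 and in 1.45% for CSF2. Both calls held in all 22 other settings tried, with differences between -0.84 and -0.73 for CSF1 and between 0.67 and 0.85 for CSF2. The count was 1 member higher and 1 lower of 5, against backgrounds of 7.77% and 8.56% (16.3% in either direction).

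CSF3 averaged 8.27 ± 2.86 FPKM in Cont CM and 9.0 ± 1.03 FPKM in No CM, a log2 difference of -0.17 (limma adjusted p = 0.651) that was 0.14 without Cont CM replicate 1 (limma adjusted p = 0.38). CSF1R averaged 0.642 ± 0.257 FPKM in Cont CM and 1.05 ± 0.0497 FPKM in No CM. Its difference of -0.46 (95% interval -0.81 to -0.11, limma adjusted p = 0.0737) did not pass. On recovered fragments limma voom gave -0.77 for CSF1R (adjusted p = 0.0289). Without Cont CM replicate 1 the CSF1R difference was -0.26 (limma adjusted p = 0.0672). CSF2RA differed by -0.21 (95% interval -0.37 to -0.04, limma adjusted p = 0.0924), and by -0.27 without Cont CM replicate 1 (limma adjusted p = 0.0233). In 3 of the 5 the groups did not overlap, against 33.3% of all tested genes.

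Medium of senescent cells, set against plain medium, left CSF2 higher. CSF2 averaged 72.1 ± 6.32 FPKM in TIS CM and 47.6 ± 0.703 FPKM in No CM, a log2 difference of 0.59 (SE 0.09, 95% interval 0.38 to 0.79, limma adjusted p = 0.0287), higher in 3 of 3 libraries. Its call was lost on leaving out any 1 TIS CM or No CM library, with differences between 0.52 and 0.64 and limma adjusted p between 0.0796 and 0.135. CSF1 averaged 124 ± 3.52 FPKM in TIS CM and 153 ± 3.98 FPKM in No CM, a difference of -0.30 (95% interval -0.43 to -0.17, limma adjusted p = 0.0613) that did not pass, although the groups did not overlap. It passed in 7 of 22 other settings. CSF3, CSF1R and CSF2RA differed by 0.35, -0.21 and -0.07, with limma adjusted p of 0.548, 0.611 and 0.753. With 1 library left out the CSF2RA difference lay between -0.12 and -0.03. Of 5 tested members 1 was higher, against a background of 0.403%, and 0 were lower, against 0.453% (0.855% in either direction). Groups did not overlap in 4 of the 5, against 24.4% of all tested genes. The 3 comparisons share their libraries pairwise, so their values are not independent of each other.

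**Figure D3:**
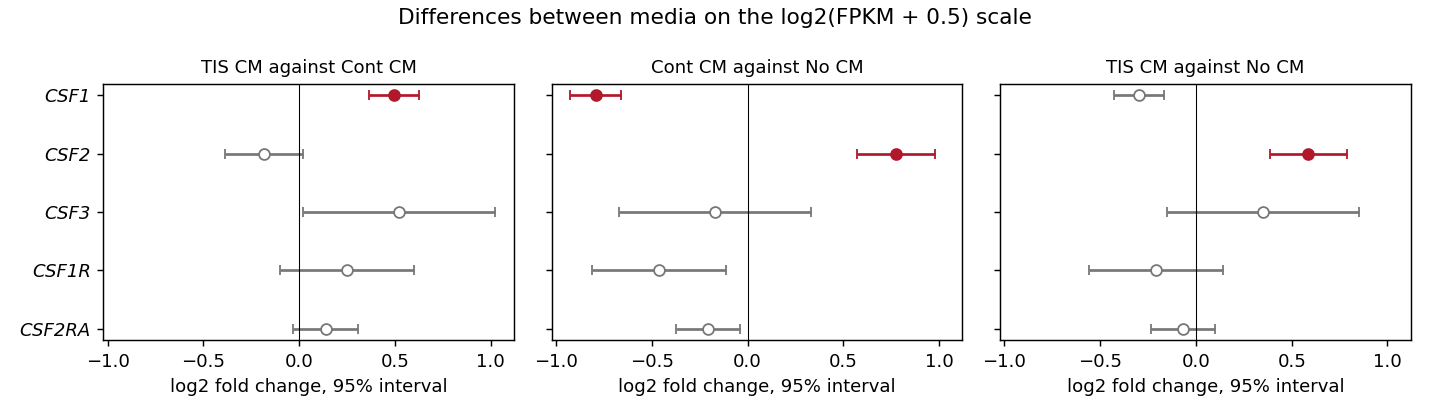
Log2 fold changes of the 5 tested members with 95% limma intervals in each comparison, first-named medium over second; filled red points passed at an adjusted p under 0.05. CSF1 passes at 0.49 and -0.79, CSF2 at 0.77 and 0.59.

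The balance between ligands was tested within each library. Each ratio is built from values already tested gene by gene above, so it is not independent of those tests. CSF1 and CSF2 moved in opposite directions, so their ratio was bound to move too. The ratio of CSF1 to CSF2 FPKM was 1.57, 1.80 and 1.81 in TIS CM, 0.994, 1.08 and 1.15 in Cont CM, and 3.16, 3.23 and 3.22 in No CM. The 3 groups were fully apart, with No CM highest and Cont CM lowest. The size of the ratio depends on the gene lengths used, 5418 bases for CSF1 and 787 bases for CSF2. CSF1 has 9 annotated transcripts and CSF2 has 1, so only differences between media are read from the ratio. The ratio averaged 1.73 ± 0.134 in TIS CM, 1.08 ± 0.0795 in Cont CM and 3.2 ± 0.0369 in No CM (SD, n = 3 each). For its log2 value the exact permutation test over the 3 groups gave p = 0.00357. On the log2 scale TIS CM exceeded Cont CM by 0.68 and Cont CM minus No CM was -1.57. Each pair gave an exact permutation p of 0.1, the smallest that 3 against 3 libraries allow.

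The ratio of CSF3 to CSF2 was 0.165, 0.153 and 0.165 in TIS CM, 0.0527, 0.131 and 0.13 in Cont CM, and 0.216, 0.169 and 0.183 in No CM. Cont CM was again lowest without overlap, and the exact permutation test over 3 groups gave p = 0.00357. It gave between 0.0571 and 0.0786 on leaving out any 1 TIS CM or No CM library. The CSF1 to CSF3 ratio averaged 10.8 ± 1.16 in TIS CM, 12 ± 5.96 in Cont CM and 17.1 ± 2.3 in No CM (exact permutation p = 0.179, and p = 0.0107 without Cont CM replicate 1). The Cont CM mean was above that of TIS CM through replicate 1 alone, at 18.9, since Cont CM replicates 2 and 3 had 8.29 and 8.86, below the lowest TIS CM library at 9.51. These were 3 ratios and 5 single genes, 8 exact tests over the 3 groups, with no adjustment over them. Pairs of groups were also tested for each of the 8, again without adjustment.

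**Figure D4:**
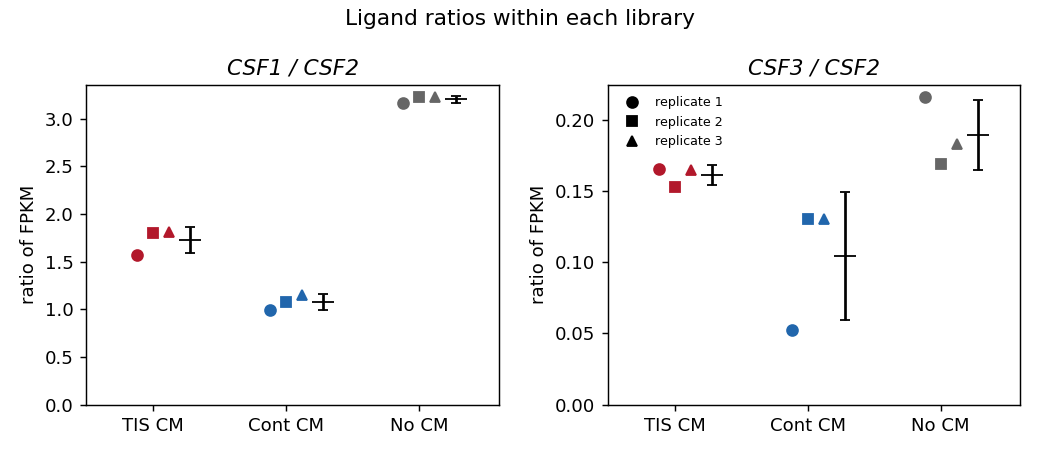
Ratio of FPKM of CSF1 to CSF2 (left) and of CSF3 to CSF2 (right) in each library of TIS CM, Cont CM and No CM, with replicates 1 to 3 as circle, square and triangle and the mean ± SD in black (n = 3). The CSF1 to CSF2 ratio is between 1.57 and 1.81 in TIS CM, near 1.08 in Cont CM and near 3.2 in No CM.

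Genes most like each tested member were ranked by Pearson correlation of log2(FPKM + 0.5) over the 9 libraries, among 10473 protein-coding genes with a mean of at least 1 FPKM. The 9 points share group, depth and library, so r is a description. Since Cont CM replicate 1 stands apart, r was also computed over the other 8 libraries, an addition made after seeing the data. For CSF1 they were SLCO4A1 (an organic anion transporter), BMP4 (a bone morphogenetic protein), RCSD1, ADAMTS15 (a secreted metalloprotease) and SEMA3B (a secreted semaphorin), with r between 0.988 and 0.993. BMP4, for example, averaged 112 FPKM in TIS CM, 83.5 in Cont CM and 134 in No CM. For CSF2 they were FSTL1, KLHL7, QSOX1, the neutrophil chemokine gene CXCL8 and PAPSS1, with r between 0.961 and 0.981. CXCL8 averaged 199 ± 12.7 FPKM in TIS CM, 221 ± 14 in Cont CM and 157 ± 8.57 in No CM. For CSF3 they were ETV4, an ETS transcription factor, MMP14, PRNP, NABP2 and PPP3R1, with r between 0.962 and 0.977, and between 0.855 and 0.944 without Cont CM replicate 1. None of these 5 was called in any comparison, and MMP14 averaged 154 ± 2.34 FPKM in TIS CM, 132 ± 22.1 in Cont CM and 145 ± 6.3 in No CM. For CSF1R they included CDK16, MORC4, C1orf112 and HLA-B, and r of these 4 was between 0.972 and 0.987, and between 0.852 and 0.934 without Cont CM replicate 1. For CSF2RA they were PRR19, AVPI1, STAT5A, RRNAD1 and RAB17. Between members r was -0.81 for CSF1 with CSF2, -0.84 for CSF2 with CSF1R, 0.79 for CSF1 with CSF2RA and 0.65 for CSF3 with CSF1R. Without Cont CM replicate 1, the lowest library for both CSF3 and CSF1R, that last r was -0.58, and the others were -0.78, -0.97 and 0.88. The r of CSF2 with CSF3 was -0.17 over 9 libraries and 0.69 over 8, and that of CSF1 with CSF3 was 0.19 and -0.25.

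Neighbouring genes were compared with the members. IL3, next to CSF2, had 0 fragments in every library, as did GSTM5, next to CSF1, and GRIK3, next to CSF3R. P4HA2, on the other side of CSF2, and AHCYL1, next to CSF1, did not pass in any comparison. MED24, 1284 bases from CSF3, PSMD3, and HMGXB3, 149 bases from CSF1R, did not pass either. MRPS15, a mitochondrial ribosomal protein gene 1606 bases from CSF3R, averaged 21.1 FPKM in TIS CM, 18.6 in Cont CM and 20.0 in No CM. MRPS15 was called higher in TIS CM than in Cont CM (limma adjusted p = 0.0406). PDGFRB, a receptor tyrosine kinase gene 465 bases from CSF1R, averaged 1.44 ± 0.0647 FPKM in TIS CM, 0.989 ± 0.0237 in Cont CM and 1.43 ± 0.0829 in No CM. It was called higher in TIS CM than in Cont CM (limma adjusted p = 0.0253) and lower in Cont CM when set against No CM (limma adjusted p = 0.00913). CRLF2, a cytokine receptor gene 56050 bases from CSF2RA, averaged 2.96 ± 0.484 FPKM in TIS CM, 1.78 ± 0.443 in Cont CM and 3.52 ± 0.543 in No CM. CRLF2 fell in Cont CM relative to No CM (limma adjusted p = 0.0102) and did not pass in the other comparisons.

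Other ligands of these receptors were nearly absent. IL34, the second ligand of CSF1R, had between 4 and 17 fragments per library, and IL5, which signals through CSF2RB, at most 1. SDC1, a proteoglycan that binds interleukin-34, averaged 37.0 FPKM in TIS CM, 32.3 in Cont CM and 32.0 in No CM, and was not called in any comparison.

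Of 20 tested genes that carry signals from these receptors 0 passed in TIS CM against Cont CM (median log2 difference -0.06), against 4.48% of all tested genes in either direction. Limma called 4 higher and 0 lower in Cont CM against No CM (median 0.01), against 7.77% higher and 8.56% lower of all tested genes. It called 0 in TIS CM against No CM (median -0.01), against 0.855% in either direction. The medians over all tested genes were 0.00345, -0.00056 and 0.00301 in the 3 comparisons. The 4 were the adaptor GAB2 (3.31 FPKM in Cont CM and 2.43 in No CM, limma adjusted p = 0.00455), the phosphatase PTPN11, and PIK3CD and PIK3CA, which encode catalytic subunits of PI3-kinase. Of 9 tested response and feedback genes 2 were lower and 0 higher in Cont CM against No CM. Of all tested genes 8.56% were lower and 7.77% higher. The 2 were SOCS1 and SOCS3, inhibitors of cytokine receptor signalling. SOCS1 averaged 4.52 FPKM in Cont CM and 6.51 in No CM (limma adjusted p = 0.0147), and SOCS3 averaged 10.0 FPKM in Cont CM and 13.2 in No CM (limma adjusted p = 0.0126). None of the 9 passed in either comparison of TIS CM. Of all tested genes 4.48% were called against Cont CM and 0.855% against No CM. Of 7 tested genes of shedding and release 2 were lower and 0 higher in Cont CM, set against No CM. The shares of all tested genes were 8.56% and 7.77%. The 2 were the protease ADAM10 and its class's inhibitor TIMP3. TIMP3 averaged 100.1 FPKM in Cont CM and 140 in No CM (limma adjusted p = 0.00905). ADAM17, which sheds CSF1, averaged 6.75 FPKM in TIS CM, 7.06 in Cont CM and 6.27 in No CM and was not called.

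Messenger RNA-binding proteins were measured through 13 genes. Many of the 13 bind AU-rich elements, but some, such as ZC3H12A, do not. Limma called 1 higher and 2 lower in Cont CM against No CM, against 7.77% higher and 8.56% lower of all tested genes. In Cont CM against No CM limma called ZFP36L1 higher (56.9 FPKM in Cont CM and 43.1 in No CM, adjusted p = 0.00149). ZFP36L2 (16.9 FPKM in Cont CM and 23.4 in No CM, limma adjusted p = 0.0022) and the ribonuclease ZC3H12A (14.8 FPKM in Cont CM and 18.3 in No CM, limma adjusted p = 0.00603) were lower. In TIS CM against Cont CM only ZC3H12A passed among the 13, with 17.2 FPKM in TIS CM and 14.8 in Cont CM (limma adjusted p = 0.0493). In that comparison 4.48% of all tested genes were called in either direction. None of the 13 passed in TIS CM against No CM, against 0.855% of all tested genes.

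Transcription factors and regulators known to act on these genes in other cells were split. Relative to No CM, Cont CM had 5 of the 21 tested higher and 3 lower, with a median of 0.07, against 7.77% higher and 8.56% lower of all tested genes. The NF-kB feedback gene TNFAIP3 (6.42 FPKM in Cont CM and 4.05 in No CM, limma adjusted p = 0.00408), ETS1, NFATC2, FOSL1 and JUN were higher. FOS (1.64 FPKM in Cont CM and 7.14 in No CM, limma adjusted p = 0.00504), CEBPD and JUNB were lower. In TIS CM against Cont CM, CEBPD was higher (28.1 FPKM in TIS CM and 22.9 in Cont CM, limma adjusted p = 0.0463). ETS1 (46.7 FPKM in TIS CM and 58.8 in Cont CM, limma adjusted p = 0.018) and NFATC2 (4.35 FPKM in TIS CM and 5.65 in Cont CM, limma adjusted p = 0.013) were lower, and 18 of the 21 did not pass, where 4.48% of all tested genes were called in either direction. CEBPB and FOSL1, 2 of the 21, were higher in TIS CM than in No CM, against 0.403% of all tested genes.

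Interleukin-1, a known inducer of CSF2 and CSF3 in stromal cells, was on the list of 9 tested upstream cytokine genes. IL1A averaged 16.8 FPKM in TIS CM, 36.0 in Cont CM and 7.64 in No CM, and IL1B averaged 17.4 FPKM in TIS CM, 27.3 in Cont CM and 9.23 in No CM. Both genes passed in all 3 comparisons. By its means CSF2 was also highest in Cont CM, but its TIS CM and Cont CM libraries overlapped. CSF2 did not pass in TIS CM against Cont CM (log2 difference -0.19, limma adjusted p = 0.253). That difference was -0.08 without Cont CM replicate 1. CSF3 had its lowest mean in Cont CM through replicate 1 alone, at 4.98 FPKM. Without that library the log2 difference of CSF3 between Cont CM and No CM was 0.14 (limma adjusted p = 0.38). Whether interleukin-1 had a part in the levels of CSF2 or CSF3 was not tested. Of the 9, 4 were higher in Cont CM than in No CM, with IL6 and CXCL8 the other two, against 7.77% of all tested genes. In TIS CM against Cont CM 2 were lower, against 1.57%, and in TIS CM against No CM 2 were higher, against 0.403%, in both cases IL1A and IL1B.

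Among markers of other cells, the monocyte receptor gene CD14 averaged 4.47 FPKM in TIS CM, 3.38 in Cont CM and 4.75 in No CM, and fell in Cont CM relative to No CM (limma adjusted p = 0.0173). CD14 was the only 1 of the 15 myeloid markers that passed the expression minimum. The summed FPKM of the 15 was between 4.72 and 5.38 in TIS CM, between 3.37 and 4.29 in Cont CM and between 4.79 and 5.9 in No CM. Most of that sum was CD14 alone, so it says little about the other 14 markers. The sum was lowest in the medium where CSF1 and CSF1R were lowest, and its part in those values was not tested. Of 6 fibroblast markers 4 had a mean under 0.5 FPKM, and their sum was between 2.56 and 2.79 FPKM in TIS CM, between 2.11 and 2.42 in Cont CM and between 2.5 and 2.65 in No CM, with PDGFRB among them. Of 6 T and NK cell markers 5, and of 5 endothelial markers 4, had a mean under 0.5 FPKM, and none of these 2 lists was called in any comparison. Of 9 genes listed to describe the line, some of them scarce in it, 7 were tested. In Cont CM against No CM 3 were lower and 0 higher, against 8.56% and 7.77% of all tested genes. The 3 were the keratin genes KRT8 and KRT18 and the cadherin gene CDH1. CDH1 was also lower in TIS CM than in No CM, with 0.438 FPKM in TIS CM, 0.299 in Cont CM and 1.17 in No CM (limma adjusted p = 0.0226). It was the only 1 of the 7 called there, where 0.453% of all tested genes were lower. KRT8 averaged 81.1 FPKM in Cont CM and 109 in No CM (limma adjusted p = 0.00905). Fewer cells that make a transcript and less of it per cell cannot be told apart in these bulk libraries.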

How the data were processed

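RNA of 9 libraries was sequenced after poly-T bead selection, per the labels' protocols. Tools named in the submitters' processing notes are DESeq2 1.20.0, featureCounts 1.5.0-p3, HISAT2 2.0.5 and fastp, with hg38 as the build; their roles and settings are not stated there. The authors deposited FPKM for 58735 genes, together with gene length, position and biotype. Gene identifiers and coordinates matched GENCODE 29 for all 58735. No source used here states the strand setting of the counting. Multiplied by gene length, 100% of the deposited values came out as whole numbers of a library's step, within 0.01, and these were taken as fragment counts.

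Genes with a mean of at least 0.5 FPKM (13912) were put on log2(FPKM + 0.5) and fitted with limma 3.58.1 in R 4.3.3 over all 9 libraries (a mean per group, a variance trend with intensity, and Benjamini-Hochberg adjustment over all tested genes). The threshold was an adjusted p of 0.05. Single values were compared with exact permutation tests, 2-sided for pairs of groups. The fit was also run on simulated data with 200 changed genes and the same relative spread set for every gene. Those data held no deviating library, so that run does not bear on Cont CM replicate 1. Other pseudocounts, filters, scalings, gene sets, voom on the fragments, a GC and length correction, a replicate block and the omission of each library were tried. The members, gene lists and tests were chosen with earlier results of these data known. Genes named were all 6 members, list genes that passed or lay at an extreme, the 5 most alike genes per member (for CSF1R, 1 of them is not reported here), and the nearest protein-coding gene on each side. Figures were drawn with matplotlib 3.10.9.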

Additional observations from a re-analysis of the deposited data

How the results depend on the processing

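CSF1 and CSF2 kept their calls in Cont CM against No CM under all 22 alternatives. The other calls were less firm, and the cause was not tested. For CSF1 in TIS CM against No CM, the log2 difference passed with protein-coding genes only (-0.30), quantile normalization (-0.32), voom (-0.30), only the 6 libraries compared (-0.30) and GC and length trends removed (-0.29), and lay between -0.32 and -0.28 with 1 library left out. For CSF2 in TIS CM against No CM it missed without the filter (0.59) and with the replicate block (0.59), and lay between 0.52 and 0.64 with 1 library left out. For CSF1 in TIS CM against Cont CM it lay between 0.43 and 0.54 with 1 library left out. CSF1R in Cont CM against No CM passed with protein-coding genes only (-0.46) and voom (-0.77). CSF2RA in Cont CM against No CM lay between -0.27 and -0.17, and CSF3 between -0.34 and 0.14, positive without Cont CM replicate 1. With 1 library left out, the exact permutation p over 3 groups lay between 0.0393 and 0.525 for CSF3, between 0.00357 and 0.0679 for CSF1R, between 0.0107 and 0.354 for the CSF1 to CSF3 ratio and between 0.00357 and 0.0786 for the CSF3 to CSF2 ratio.

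The number of genes called depended far more on the setting. In TIS CM against Cont CM 623 genes were called, and 207 without the filter, 995 with protein-coding genes only, 1104 by voom, 356 without the intensity trend, 33 in the fit of only 6 libraries, 126 with the replicate block, 163 with GC and length trends removed and between 11 and 1084 with 1 library left out. In Cont CM against No CM 2272 were called, and 1236 in the fit of only 6 libraries, 1461 with the replicate block and between 1075 and 2775 with 1 library left out. In TIS CM against No CM 119 were called, and 46 without the filter, 210 with protein-coding genes only, 259 by voom, 75 without the intensity trend, 331 in the fit of only 6 libraries, 4 with the replicate block and between 9 and 364 with 1 library left out. Scaling to equal library sums moved the share of calls that were higher to 41.8%, from 64.8%, in TIS CM against Cont CM and to 20.9%, from 47.1%, in TIS CM against No CM. Same-numbered libraries did not deviate together (r between -0.19 and 0.08 over 9 pairs), so the numbers were not taken as pairs. The replicate block changed no other call of a member. With 59 to 202 fragments, CSF1R carries the most counting error of the tested members.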
